A study of Mus musculus with 4 samples.

Results

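The integrated stress response and the unfolded protein response were described in fetal liver cells of mice labelled as lacking hnRNP L, set against wild-type fetal liver cells. The 35 genes came from a list of named stress genes, matched by symbol among 22011 genes, and all 35 were found and tested. Of these, 18 belong to the integrated stress response around the transcription factor ATF4, and 17 to the branch run by XBP1 and ATF6. HnRNP L (heterogeneous nuclear ribonucleoprotein L) binds RNA and takes part in splicing, and total RNA depleted of ribosomal RNA was sequenced from 2 knockout (KO) and 2 wild-type (WT) samples, whose libraries are called KO1, KO2, WT1 and WT2. The KO samples are labelled hnRNP L -/- and the WT samples wild type, and both are fetal liver cells with no treatment named. The husbandry text names C57BL/6, LckCre transgenic (Lck is a T-lymphocyte gene), a ROSA26 reporter strain and CD45.1 mice for the work as a whole, without tying any of them to these livers. The sources used here give neither the kind of deletion, nor the embryonic day, nor the litters, nor whether cells were pooled. The p-values therefore measure the spread between these 4 libraries.

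Cells answer misfolded protein in the endoplasmic reticulum (ER), amino acid shortage or haem shortage by phosphorylating the initiation factor eIF2, which lowers translation in general while raising translation of ATF4. ATF4 then switches on genes for amino acid synthesis and import, for redox balance and, through CHOP, for cell death. In parallel, the ER sensor IRE1 splices Xbp1 mRNA in the cytoplasm and ATF6 is cut at the Golgi, and the 2 factors raise ER chaperones, disulfide enzymes and the machinery that removes misfolded proteins. Fetal liver carries both a secretory load, in hepatocytes, and a haem-sensing eIF2 kinase, HRI, in the erythroid cells that it produces.

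The libraries had 47700336 and 48162919 reads on the kept transcripts in KO, against 33738843 and 56895360 in WT. Levels are given in CPM, counts scaled to 1000000 per library. Hnrnpl itself had 280 and 269 CPM in KO, against 460 and 603 CPM in WT, so both KO libraries were lower but still held transcripts of the gene (log2 fold change -0.95 ± 0.16 SE, adjusted p = 0.0114, edgeR quasi-likelihood test). Liver identity was seen in every library, with Alb, the albumin gene, at 31296 and 24904 CPM in KO, against 21421 and 14945 CPM in WT. The sexes were not balanced: the Y-linked Ddx3y had 5 and 2839 reads in KO, against 8 and 14 reads in WT, and Xist, expressed in females, had 45597 and 336 reads in KO, against 31498 and 51618 reads in WT. Cardiac muscle markers were lower in KO for 10 of 10 genes by edgeR and for 5 of 10 by limma voom. They summed to 4.72 and 7.55 CPM in KO, against 61.2 and 329 CPM in WT, with Nppa at 0 reads in 1 KO library. The WT libraries were unlike each other: Myh7 had 0.743 CPM in WT1 and 54.8 CPM in WT2, while Myl7 had 9.32 and 7.69 CPM. The source of these heart transcripts was not tested. In bulk samples such as these, fewer cells of a type and less RNA per cell cannot be told apart.

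Few genes of either arm passed the test. Across the 35 genes, 4 passed the test as higher in KO, 3 as lower and 28 did not pass, with adjusted p under 0.05 in the edgeR quasi-likelihood test over all 15028 genes tested. Over all genes, 20.8% passed, 11.4% as higher and 9.44% as lower, so the share of members called was near the background. Of all calls, 54.7% were higher (1711 higher and 1419 lower), or 71.4% with plain library sizes (2380 and 952). Among ATF4 genes, Atf5 and Vldlr rose while Atf4, Ppp1r15a and Pck2 fell. Among XBP1 and ATF6 genes, Calr and Pdia3 rose and none fell. At an unadjusted p under 0.05 in edgeR, 8 of these 17 genes were higher and 0 lower. DESeq2 gave 4 higher and limma voom 3, with 0 lower by either. The shares of all genes under these 3 settings are not given here. The median log2 fold change was 0.10 over the 18 ATF4 genes and 0.30 over the 17 XBP1 and ATF6 genes, against 0.02 over all genes tested. Of all 15028 genes tested, 7706 had a positive log2 fold change and 7322 a negative one.

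Most ER genes lay on one side without passing the test. Both KO libraries lay above both WT libraries for 14 of the 17 XBP1 and ATF6 genes and below for 1, Atf6, with overlap for Sdf2l1 and Pdia6. For the 18 ATF4 genes the groups were apart with KO above for 4 and with KO below for 6, and overlapped for 8. Over all genes tested, KO lay above for 33.5% and below for 31.7%. With 2 libraries against 2, an exact permutation test of 1 gene cannot give a two-sided p below 0.333, so the calls rest on the spread shared across genes in the edgeR fit.

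**Figure D1:**
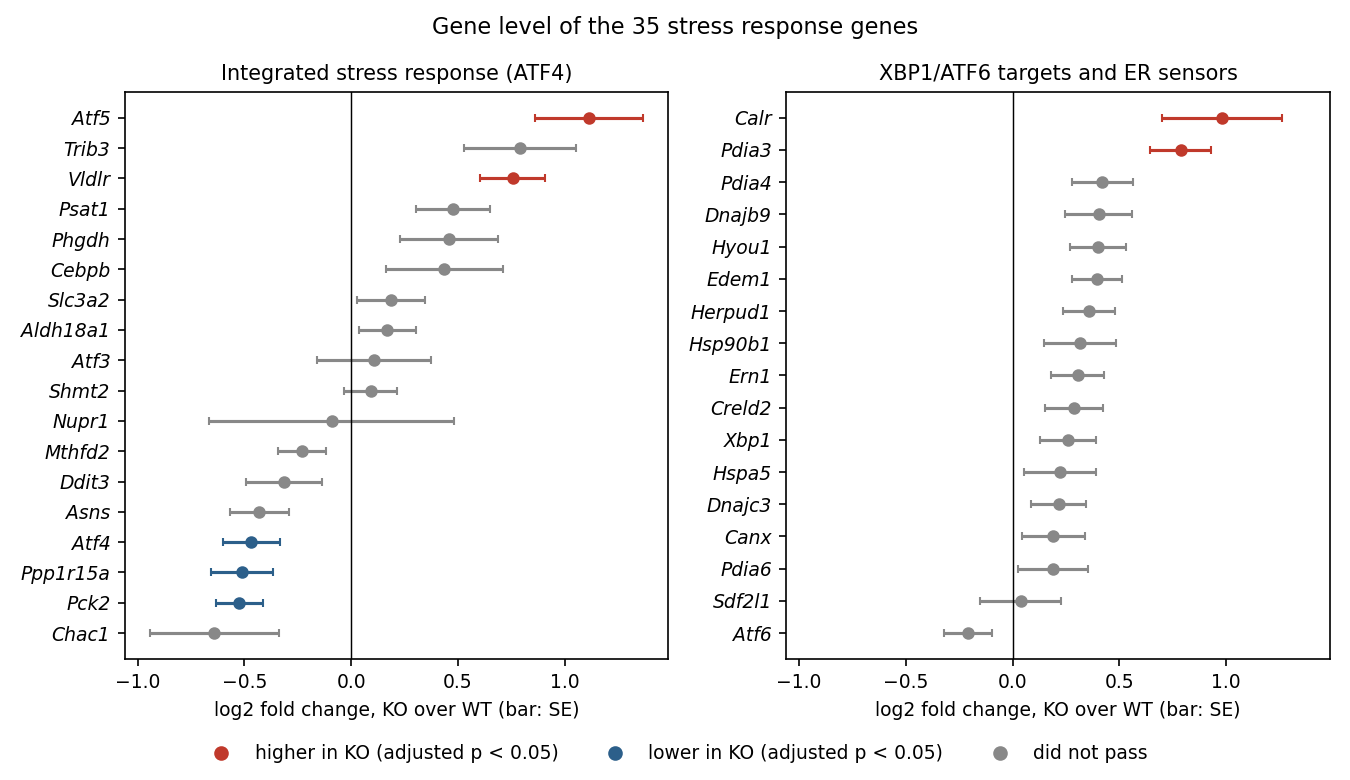
Log2 fold change of KO over WT for each of the 35 genes, with bars of 1 SE from the edgeR fit (n = 2 libraries a group), ATF4 genes in one panel and XBP1 and ATF6 genes in the other. Red marks passed as higher and blue as lower, grey did not pass; the ATF4 panel spreads on both sides of 0, and 16 of the 17 XBP1 and ATF6 genes lie above 0.

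Leaving out 1 library or changing the scaling moved these counts. Among ATF4 genes, the number higher was 1 without WT1, 1 without WT2, 4 without KO1 and 1 without KO2, in place of 2. The number lower was 1, 0, 2 and 0 in the same order, in place of 3. Among XBP1 and ATF6 genes, the number higher was 0, 2, 1 and 1 in that order, in place of 2. With plain library sizes, 4 ATF4 genes were higher and 1 lower, and 6 XBP1 and ATF6 genes were higher.

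The sequence that ATF4 reads is the C/EBP-ATF response element (CARE), a composite of a C/EBP part and an ATF part that ATF4 binds with C/EBP partners. It was searched as TGATGNAAN on both strands of the RefSeq promoter windows (GRCm38.p6), from 250 bases before to 50 after the start of each gene. Windows were found for 33 of the 35 genes, all 18 ATF4 genes among them. The motif was present in 7 of the 18 ATF4 genes and in 1 XBP1 and ATF6 gene, Herpud1, and in 3.95% of all 32851 windows. The 8 matches are shown with 10 bases on each side because genes that hold them passed as higher, passed as lower or did not pass; they are printed 5′ to 3′ on the strand of the gene, with the motif in capitals.
Asns, chr6:7693214-7693242, minus strand: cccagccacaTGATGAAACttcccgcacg
Atf3, chr1:191183426-191183454, minus strand: ccttctcgcaCTTGCATCAccaagtccgc
Chac1, chr2:119351038-119351066, plus strand: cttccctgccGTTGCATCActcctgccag
Herpud1, chr8:94386306-94386334, plus strand: accacggcggGTTGCATCAgcccgcaccc
Nupr1, chr7:126625563-126625591, minus strand: aaagggccagATTGCATCAgacagggctt
Pck2, chr14:55540152-55540180, plus strand: agccttcaaaGTTACATCAgtatcttaca
Trib3, chr2:152344029-152344057, minus strand: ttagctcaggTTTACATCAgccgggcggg
Vldlr, chr19:27216809-27216837, plus strand: agcagcaataGTTGCATCAgcgctcctag

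Of these 8 genes, Vldlr was higher, Pck2 was lower and the other 6 did not pass. The matches in Vldlr, Chac1 and Herpud1 all read GTTGCATCA on the printed strand, and the fold changes of the 3 genes were 0.76, -0.64 and 0.36 on the log2 scale. Asns alone reads in the forward orientation. A match is a description of letters in a window and not a measured site.

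Atf4 encodes the central factor of the integrated stress response, a bZIP protein whose output is set mostly by translation. Its transcripts stood at 328 and 318 CPM in KO, against 475 and 417 CPM in WT. Both KO libraries were lower and the groups did not overlap (log2 fold change -0.47 ± 0.13, adjusted p = 0.0455, edgeR quasi-likelihood test). The call was lost with any 1 library left out: the edgeR adjusted p was 0.213 without WT1, 0.0946 without WT2, 0.0792 without KO1 and 0.132 without KO2. It was also lost with plain library sizes (adjusted p = 0.0908), among genes with a mean of at least 5 CPM (0.0508) and in junction reads (0.0734), all by edgeR.

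Ppp1r15a encodes GADD34, the stress-induced subunit that leads a phosphatase back to eIF2 and so ends the response. It had 232 and 192 CPM in KO, against 324 and 280 CPM in WT. KO was lower without overlap (log2 fold change -0.51 ± 0.15, adjusted p = 0.0452, edgeR quasi-likelihood test). The edgeR adjusted p was 0.185 without WT1, 0.0767 without WT2 and 0.175 without KO2. With plain library sizes it was 0.0624, and in junction reads 0.189.

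Ddit3, which encodes CHOP, the factor that carries prolonged ER stress toward apoptosis, had 20.4 and 16.3 CPM in KO, against 25.8 and 19.9 CPM in WT. The groups overlapped, with KO1 just above WT2, and the gene did not pass (log2 fold change -0.31 ± 0.18, adjusted p = 0.238, edgeR quasi-likelihood test). None of the alternatives brought it past the threshold. Trib3, a pseudokinase induced by CHOP that restrains ATF4, had 3.97 and 3.45 CPM in KO, against 2.45 and 1.87 CPM in WT, and did not pass (log2 fold change 0.79 ± 0.26, adjusted p = 0.069 by edgeR). Trib3 passed with plain library sizes, without a filter on low counts and with a replicate block.

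Atf5, a relative of ATF4 that is also controlled by translation and is abundant in liver, went the other way. It had 51.2 and 83.5 CPM in KO, against 37.0 and 25.4 CPM in WT. Both KO libraries were higher, KO2 most of all, and the gene rose 2.17-fold (log2 fold change 1.12 ± 0.25, adjusted p = 0.0238, edgeR quasi-likelihood test). Without KO2 the log2 fold change was 0.72 (edgeR adjusted p = 0.0858), and without WT2 it was 0.87 (0.0755). Reads across the annotated junctions of Atf5 numbered 151 and 267 in KO, against 55 and 52 in WT, a log2 fold change of 1.73 ± 0.33. Raw junction reads follow depth, and WT1 had the fewest on annotated junctions, 4875332, against 6941562 to 8624429 in the other libraries; the fold changes are scaled for this.

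The other 3 factors overlapped between the groups. Atf3, an immediate stress-induced repressor, had 2.61 and 2.40 CPM in KO, against 2.57 and 2.11 CPM in WT. Nupr1, a small stress-induced chromatin protein, had 0.877 and 0.780 CPM in KO, against 1.39 and 0.432 CPM in WT. Cebpb, a C/EBP partner of ATF4, had 17.4 and 9.38 CPM in KO, against 10.1 and 9.74 CPM in WT, and only KO1 stood apart. None of the 3 passed the test.

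Among the 8 genes of amino acid and one-carbon metabolism and transport, 1 fell, none rose and 7 did not pass. At an unadjusted p under 0.05 in edgeR 1 was higher and 2 were lower, the same numbers as passed by DESeq2. By limma voom 0 passed as higher and 2 as lower. The gene that fell was Pck2, the mitochondrial form of phosphoenolpyruvate carboxykinase, with 71.7 and 67.2 CPM in KO, against 94.8 and 105 CPM in WT. The groups were well apart (log2 fold change -0.52 ± 0.11, adjusted p = 0.019, edgeR quasi-likelihood test). In junction reads Pck2 was lower too (463 and 472 reads in KO, against 442 and 811 reads in WT, log2 fold change -0.56 ± 0.16, edgeR adjusted p = 0.0366). The edgeR adjusted p was 0.093 without WT2 and 0.0827 without KO2.

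The enzymes on the same pathways did not share a direction. Asns, the asparagine synthetase that is the textbook amino acid response gene, had 408 and 436 CPM in KO, against 540 and 598 CPM in WT, without overlap but above the threshold (log2 fold change -0.43 ± 0.14, adjusted p = 0.0622, edgeR quasi-likelihood test). Psat1, an enzyme of serine synthesis, had 249 and 352 CPM in KO, against 217 and 215 CPM in WT (log2 fold change 0.48 ± 0.17, edgeR adjusted p = 0.088). Both passed under DESeq2. Phgdh, which opens the serine pathway, had 31.2 and 52 CPM in KO, against 33.2 and 27.4 CPM in WT, with overlap.

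The mitochondrial one-carbon enzymes Shmt2 and Mthfd2 had log2 fold changes of 0.09 and -0.23, and neither passed. Mthfd2 stood at 185 and 190 CPM in KO, against 215 and 225 CPM in WT, with no overlap. Aldh18a1, which starts proline synthesis, and Slc3a2, the shared heavy chain of several amino acid exchangers, had log2 fold changes of 0.17 and 0.19, and did not pass. Slc3a2 overlapped, at 238 and 201 CPM in KO, against 168 and 218 CPM in WT.

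Vldlr, a lipoprotein receptor that ATF4 is known to induce in hepatocytes, had 25.7 and 30.8 CPM in KO, against 15.2 and 18.1 CPM in WT. Both KO libraries were higher and Vldlr rose 1.69-fold (log2 fold change 0.76 ± 0.15, adjusted p = 0.0179, edgeR quasi-likelihood test). Its junction reads, 93 and 102 in KO, against 52 and 85 in WT, gave 0.36 ± 0.28 and did not pass (edgeR adjusted p = 0.459). The edgeR adjusted p was 0.0758 without WT1 and 0.0799 without KO2. Chac1, an enzyme that degrades glutathione and is induced by ATF4, had 2.78 and 2.03 CPM in KO, against 4.55 and 2.99 CPM in WT, and did not pass (log2 fold change -0.64 ± 0.30, edgeR adjusted p = 0.169).

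**Figure D2:**
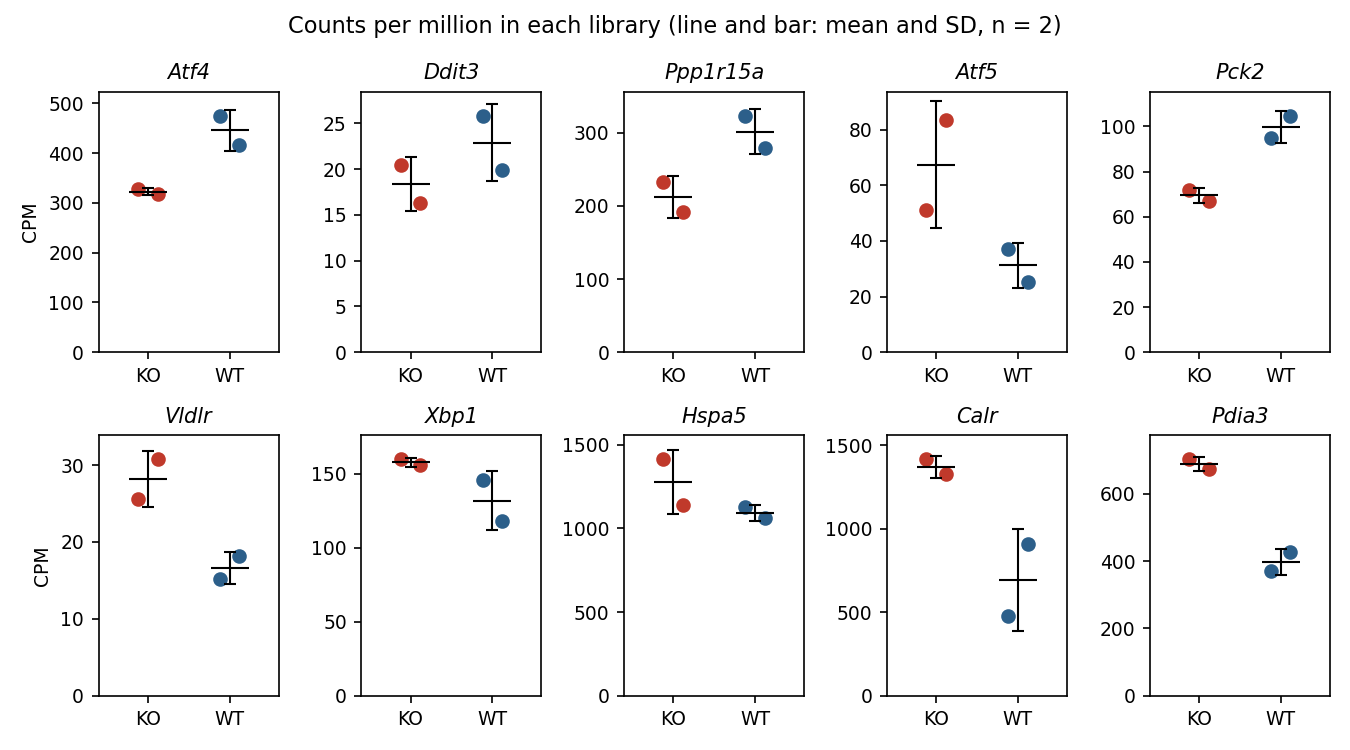
Level in CPM in each library for the 10 genes given in full, KO left of WT in each panel, with points for libraries and a line and bar for the mean and SD (n = 2 each). Atf4, Ppp1r15a and Pck2 lie lower in both KO libraries; Atf5, Vldlr, Calr and Pdia3 lie higher; Ddit3 overlaps, and Xbp1 and Hspa5 lie higher in both KO libraries without passing the test.

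Erythroid markers moved with the ATF4 genes that fell. Of 15 such markers, 12 were lower in KO and none higher, beside 9.44% of all genes lower. Their sum was 18985 and 14559 CPM in KO, against 28430 and 28519 CPM in WT. No erythroid marker was at 0 in any library. The part of this shift in the lower Atf4, Ppp1r15a and Pck2 values was not tested.

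XBP1 and ATF6 act through the ER stress response element (ERSE), which pairs a CCAAT box with a CCACG box, and through the shorter ERSE-II. ERSE was searched as CCAAT, then any 9 bases, then CCACG, and ERSE-II as ATTGG, then any 1 base, then CCACG, on both strands of the same windows. ERSE was present in 7 of the 15 XBP1 and ATF6 genes with a window, in 0 of the 18 ATF4 genes and in 0.119% of all windows. Hsp90b1 held 2 matches. The 8 matches are shown so that their letters can be compared between genes, with the element in capitals.
Calr, chr8:84847065-84847103, minus strand: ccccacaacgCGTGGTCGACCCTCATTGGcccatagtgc
Canx, chr11:50325790-50325828, minus strand: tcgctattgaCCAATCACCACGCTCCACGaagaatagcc
Creld2, chr15:88819510-88819548, plus strand: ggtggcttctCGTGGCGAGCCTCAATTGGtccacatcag
Dnajc3, chr14:118937817-118937855, plus strand: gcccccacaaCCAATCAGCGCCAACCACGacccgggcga
Hsp90b1, chr10:86705628-86705666, minus strand: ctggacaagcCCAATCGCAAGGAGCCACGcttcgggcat
Hsp90b1, chr10:86705523-86705561, minus strand: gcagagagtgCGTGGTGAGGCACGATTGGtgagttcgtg
Hspa5, chr2:34772015-34772053, plus strand: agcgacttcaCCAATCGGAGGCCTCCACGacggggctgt
Pdia6, chr12:17266481-17266519, plus strand: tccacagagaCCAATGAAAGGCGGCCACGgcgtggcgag

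The Hspa5 match lies between 65 and 47 bases before the start, and its whole window is shown as the classic example of this promoter type. Only the element with the exact letters searched is in capitals, and variants of it stay in lower case.
Hspa5 promoter, chr2:34771840-34772139, plus strand: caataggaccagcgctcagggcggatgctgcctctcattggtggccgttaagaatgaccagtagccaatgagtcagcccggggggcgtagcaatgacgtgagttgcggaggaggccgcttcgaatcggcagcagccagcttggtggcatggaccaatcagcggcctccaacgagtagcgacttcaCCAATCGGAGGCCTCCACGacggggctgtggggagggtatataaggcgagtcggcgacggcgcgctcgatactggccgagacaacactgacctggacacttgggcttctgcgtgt

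ERSE-II was present in 0.0365% of all windows and, among the members, in Herpud1 alone, whose window also holds the CARE printed above. The 2 elements do not overlap: the CARE lies 113 to 105 bases before the start and the ERSE-II 52 to 42 bases before it. The whole Herpud1 window is shown because it is the one member window with elements of both arms, both in capitals.
Herpud1 promoter, chr8:94386179-94386478, plus strand: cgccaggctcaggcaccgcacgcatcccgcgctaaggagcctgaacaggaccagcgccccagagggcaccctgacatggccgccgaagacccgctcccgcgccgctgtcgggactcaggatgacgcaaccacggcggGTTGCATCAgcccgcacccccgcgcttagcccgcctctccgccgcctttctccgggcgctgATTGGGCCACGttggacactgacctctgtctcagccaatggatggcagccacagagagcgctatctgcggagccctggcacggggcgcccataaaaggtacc

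Of the 7 genes with an ERSE match, Calr was higher and the other 6 did not pass. Pdia3, the other gene that rose in this arm, has a window without the letters of either ER element.

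Xbp1 encodes the factor that IRE1 activates. Its transcripts stood at 160 and 156 CPM in KO, against 146 and 118 CPM in WT, a log2 fold change of 0.26 ± 0.13 that did not pass (adjusted p = 0.192, edgeR quasi-likelihood test). Both KO libraries were above both WT libraries by a small margin. Ern1, the gene of IRE1 itself, had 28.3 and 31.9 CPM in KO, against 24.1 and 24.7 CPM in WT (log2 fold change 0.30 ± 0.12, edgeR adjusted p = 0.118). Atf6 was the only gene of this arm below 0, at 148 and 134 CPM in KO, against 159 and 167 CPM in WT (log2 fold change -0.21 ± 0.11, edgeR adjusted p = 0.218).

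IRE1 removes 26 bases from Xbp1 mRNA, which shifts the reading frame and gives the active factor. In the GENCODE M21 transcript these bases lie in exon 4 of 5, at chr11:5524279-5524304 of GRCm38, within coding sequence. Removing them lengthens the open reading frame to 371 codons, against 267 codons uncut. The site is shown with 20 bases on each side and the removed bases in capitals.
Xbp1, chr11:5524259-5524324, plus strand: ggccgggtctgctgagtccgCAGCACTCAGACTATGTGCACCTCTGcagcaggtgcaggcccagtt

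The deposited junction tables could not show this event. No junction listed for Xbp1 spans 26 bases, and the shortest spans 300. What they gave were the 4 annotated junctions, which IRE1 does not act on. The exon 4 to exon 5 junction, next to the site, had 303 and 456 reads in KO, against 195 and 270 in WT. Scaled to 1000000 annotated-junction reads these were 42.4 and 65.7 in KO, against 40 and 31.3 in WT, so KO2 stood apart and KO1 was close to WT1.

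The exon 2 to exon 3 junction had 301 and 341 reads in KO, against 228 and 272 in WT. The exon 1 to exon 2 junction had 72 and 63 reads in KO, against 24 and 83 in WT, and exon 3 to exon 4 had 27 and 18 in KO, against 23 and 15 in WT. None of the 4 passed the test of usage within the gene, with log2 usage changes of -0.01, -0.17, -0.34 and 0.20 in exon order and an adjusted p of 1.00 for each in edgeR's diffSpliceDGE. Exon-skipping reads were limited to 4 in WT1, and no other library had any. Over all genes WT1 also had the most reads on unannotated junctions, 152103, against 44924 to 62959 in the other libraries.

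**Figure D3:**
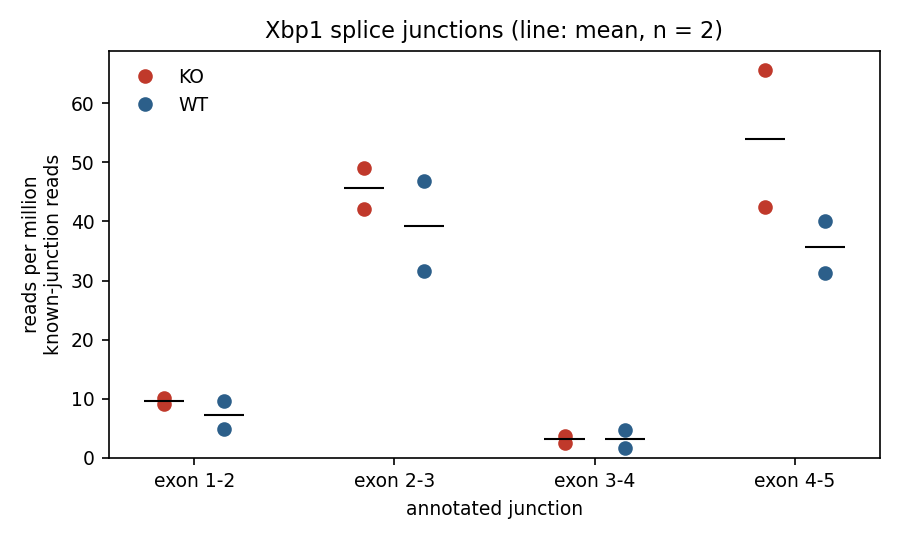
Reads scaled to 1000000 known-junction reads across each of the 4 annotated Xbp1 junctions, KO left of WT, with points for libraries and lines for means (n = 2 each). The 2nd and 4th junctions carry most reads in all 4 libraries, and KO2 is highest at the exon 4 to exon 5 junction.

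Hspa5 encodes BiP, the main ER chaperone and the usual readout of ER stress. It had 1414 and 1140 CPM in KO, against 1128 and 1060 CPM in WT. KO1 stood above the rest, the other KO library was close to the higher WT library, and the gene did not pass (log2 fold change 0.22 ± 0.17, adjusted p = 0.376, edgeR quasi-likelihood test). It passed under none of the alternatives. Hsp90b1, which encodes the ER chaperone GRP94, had 1329 and 1182 CPM in KO, against 1105 and 915 CPM in WT (log2 fold change 0.31 ± 0.17, edgeR adjusted p = 0.216).

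Calr encodes calreticulin, a calcium-binding chaperone that holds glycoproteins for folding. It had 1417 and 1325 CPM in KO, against 479 and 911 CPM in WT. Both KO libraries were higher, and WT1 was far below WT2 (log2 fold change 0.98 ± 0.28, adjusted p = 0.0457, edgeR quasi-likelihood test). The log2 fold change was 0.59 without WT1 (edgeR adjusted p = 0.129) and 1.52 without WT2. The edgeR adjusted p was 0.0985 without KO1 and 0.102 without KO2. DESeq2 gave 0.0991, and junction reads gave 0.0584 in edgeR.

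Pdia3 encodes ERp57, the disulfide isomerase that works on glycoproteins held by calreticulin and calnexin. It had 703 and 673 CPM in KO, against 371 and 426 CPM in WT. KO was higher without overlap and Pdia3 rose 1.73-fold (log2 fold change 0.79 ± 0.14, adjusted p = 0.0138, edgeR quasi-likelihood test). Junction reads, at 5861 and 6491 in KO, against 2234 and 4140 in WT, gave 0.82 ± 0.16 (edgeR adjusted p = 0.00648). The call was lost without WT1 (edgeR adjusted p = 0.0678) and under none of the other alternatives. Canx, the membrane-bound partner calnexin, had 1210 and 1154 CPM in KO, against 1020 and 1053 CPM in WT, a log2 fold change of 0.19 ± 0.15 that did not pass.

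The other chaperones and folding enzymes lay close together, at log2 fold changes of 0.04 to 0.42, and none passed. Pdia4, another disulfide isomerase, had 363 and 299 CPM in KO, against 262 and 233 CPM in WT (0.42 ± 0.14, edgeR adjusted p = 0.0757). Hyou1, a large ER chaperone, had 410 and 368 CPM in KO, against 308 and 281 CPM in WT (0.40 ± 0.13, edgeR adjusted p = 0.0671). Dnajb9, a J-domain partner of BiP and an XBP1 target, had 16.5 and 15.2 CPM in KO, against 13.0 and 11 CPM in WT. In Pdia4, Hyou1 and Dnajb9 the KO libraries were the higher pair, with no overlap.

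Dnajc3, the J-domain protein P58IPK, had a log2 fold change of 0.21, Creld2, an ER protein induced by stress, 0.29, and Pdia6 0.19. Sdf2l1, a BiP cofactor that responds quickly to ER stress, was nearest to 0, at 56.7 and 37.4 CPM in KO, against 48.2 and 43.6 CPM in WT. The KO libraries of Sdf2l1 enclosed both WT libraries.

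The 2 genes of ER-associated degradation were apart without passing. Edem1, which draws misfolded glycoproteins out of the folding cycle, had 162 and 156 CPM in KO, against 130 and 112 CPM in WT (log2 fold change 0.39 ± 0.12, adjusted p = 0.0518, edgeR quasi-likelihood test). Herpud1, which assembles the degradation complex, had 155 and 135 CPM in KO, against 119 and 107 CPM in WT (0.36 ± 0.12, edgeR adjusted p = 0.073). Edem1 passed under DESeq2, limma voom, plain library sizes, a mean of at least 5 CPM, no low-count filter and a replicate block.

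Marker genes of several cell types moved with this arm. Hepatocyte markers were higher in KO for 6 of 17 genes and lower for none, summing to 91090 and 74583 CPM in KO, against 59640 and 43153 CPM in WT. Granulocyte markers were higher for 6 of 12 (1395 and 1064 CPM in KO, against 824 and 688 CPM in WT). The log2 fold change was negative for 2 of the 12, Prtn3 (-0.33) and Ctsg (-0.50). Megakaryocyte markers were higher for 8 of 11 (1612 and 1380 CPM in KO, against 854 and 975 CPM in WT), and 1 was negative, Gp6 (-0.22). None of these 3 passed as lower. Over all genes tested 11.4% were higher.

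Endothelial markers were higher for 5 of 8 (860 and 913 CPM in KO, against 536 and 593 CPM in WT). No marker on these 4 lists was at 0 in any library. B lymphoid and plasma cell markers were higher for 1 gene, Sdc1, and lower for 3 of the 10 tested, with Pax5 at 0 reads in 1 KO library. Their sum was 116 and 112 CPM in KO, against 81.1 and 71.3 CPM in WT. Most of that sum was Sdc1, at 107 and 104 CPM in KO, against 63.2 and 58.1 CPM in WT. The log2 fold change was negative for 8 of the 10 tested and positive for 2, with a median of -0.51. Macrophage markers were higher for 3 and lower for 2 of the 9 tested (357 and 274 CPM in KO, against 512 and 358 CPM in WT). The part of these shifts in the higher ER gene values was not tested.

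Per unit of transcript length, the ER chaperone genes Calr, Hspa5 and Hsp90b1 had the highest mean levels of the 35 genes in both groups. On the authors' RPKM scale, which divides reads by transcript length and by mapped reads, Calr ranked first in KO with a mean of 361, against 174 and rank 3 in WT. Hspa5 averaged 249 RPKM in KO and 201 RPKM in WT, where it ranked first, and Hsp90b1 averaged 232 RPKM in KO and 175 RPKM in WT. The leading 3 genes in WT differed by less than the spread of Calr between its 2 libraries.

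Asns, at 112 RPKM in KO and 142 RPKM in WT, and Atf4, at 95.7 RPKM in KO and 124 RPKM in WT, were the most abundant ATF4 genes. Xbp1 averaged 44.8 RPKM in KO and 35 RPKM in WT, and Ddit3 10.8 RPKM in KO and 12.6 RPKM in WT. The lowest 4 in KO were Trib3 at 0.923 RPKM in KO and 0.503 RPKM in WT, Chac1 at 0.779 RPKM in KO and 1.14 RPKM in WT, Nupr1 at 0.676 RPKM in KO and 0.686 RPKM in WT, and Atf3 at 0.648 RPKM in KO and 0.566 RPKM in WT.

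**Figure D4:**
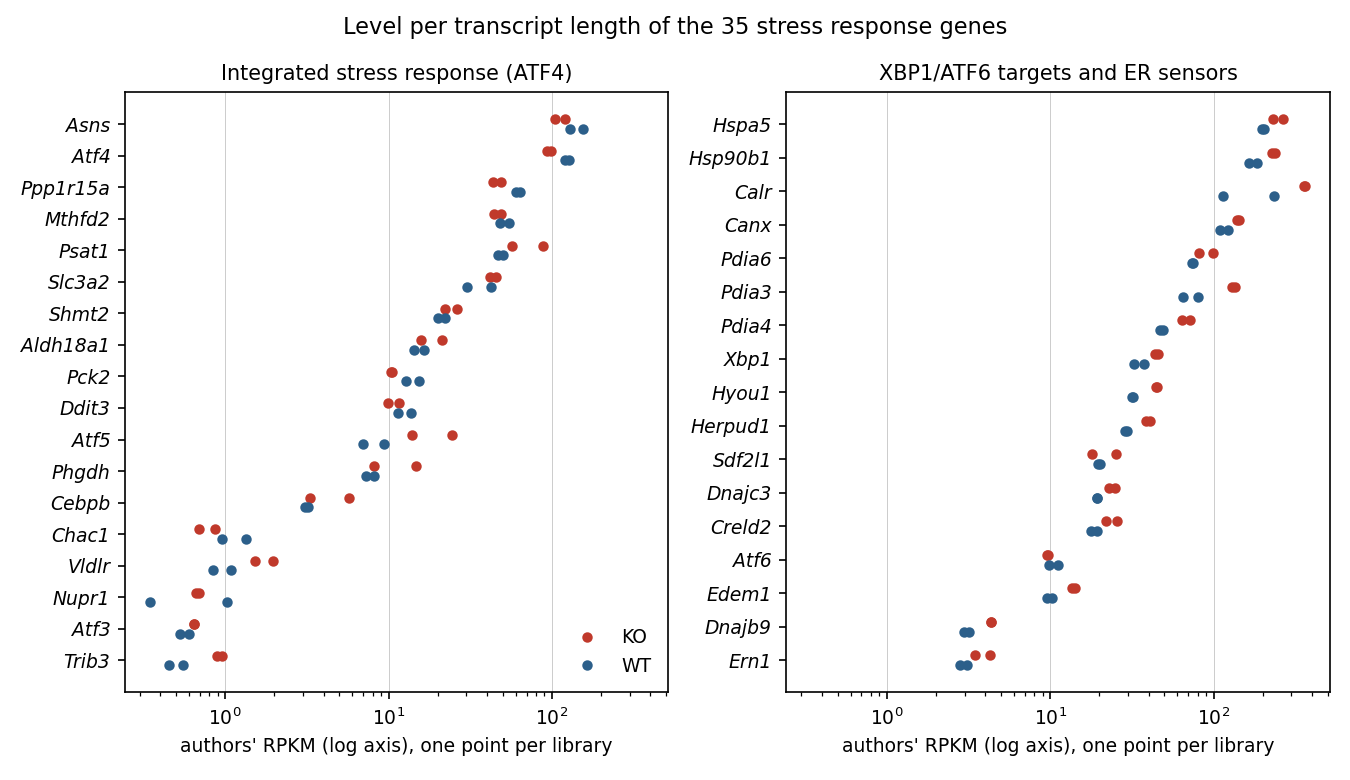
RPKM of each of the 35 genes on a log axis, 1 point per library, with KO points above WT points in each row. Calr, Hspa5 and Hsp90b1 have the highest means, led in KO by Calr with a mean of 361, and Atf3, Nupr1, Chac1 and Trib3 have the lowest means in KO.

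Annotated splice junctions were listed for 34 of the 35 genes, all but the single-exon Cebpb. Of 313 such junctions, 311 had reads, and 291 in 30 genes had enough reads for a test of usage within the gene. None passed at an adjusted p under 0.05 in edgeR's diffSpliceDGE, and 3 had an unadjusted p under 0.05, or 1.03% of those tested, against 2.38% over all 103333 junctions, of which 0.00194% passed. The 3 were in Pdia3, Atf6 and Ern1. Leaving out any 1 library, or asking for at least 40 reads, also gave 0 calls.

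Reads on annotated junctions gave a second count of the same libraries. It could be tested in 30 of the 35 genes, and all 30 had the same sign as the transcript counts. Atf5 and Pdia3 passed as higher and Pck2 as lower, by edgeR. Of all 11247 genes so tested, 10.6% passed, 6.19% as higher and 4.4% as lower. Unannotated junctions were listed 1874 times for these genes, of which 147 had any read.

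The members were then set beside 8 further lists of the same pathways, with 112 genes of which 110 were tested. Of these, 22 passed as higher in KO, 3 as lower and 85 did not pass, with a median log2 fold change of 0.18. Over all genes tested 11.4% were higher and 9.44% lower, with a median of 0.02, and the counts of genes higher among the ER-associated degradation genes (1 of 15) and the secretory genes (3 of 21) were near that share. Fgf21 and Ern2 had too few reads to be tested. The lists overlap no member.

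Upstream of ATF4, the list of eIF2 kinases, eIF2 subunits and regulators held 1 gene higher and 1 lower among 9. Eif2ak1, the haem-regulated kinase HRI of erythroid cells, had 318 and 280 CPM in KO, against 400 and 426 CPM in WT (log2 fold change -0.47 ± 0.13, adjusted p = 0.045, edgeR quasi-likelihood test). Gcn1l1, the activator of the amino acid sensing kinase GCN2, had 170 and 228 CPM in KO, against 115 and 141 CPM in WT (0.64 ± 0.17, edgeR adjusted p = 0.0371). Both calls were lost without WT1 (edgeR adjusted p 0.11 for Eif2ak1 and 0.148 for Gcn1l1), without WT2 (0.191 and 0.053) and without KO2 (0.16 and 0.153). Without KO2 the log2 fold change of Gcn1l1 was 0.41. Eif2ak1 was lost with plain library sizes too (0.0849). The erythroid markers given above moved the same way as Eif2ak1, and their part was not tested.

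Eif2ak3, the ER stress kinase PERK, did not pass, at 36.1 and 33.2 CPM in KO, against 24.3 and 29.6 CPM in WT (0.36, edgeR adjusted p = 0.0983). The kinases Eif2ak4 (GCN2) and Eif2ak2 (PKR) had log2 fold changes of -0.04 and 0.36, and neither passed.

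The 13 tRNA synthetase and tRNA export genes that ATF4 is known to induce all missed the threshold in edgeR, with 2 lower and 0 higher at an unadjusted p under 0.05, and 1 lower by DESeq2 and 0 by limma voom. Their log2 fold changes were below 0 for 12 of 13, beside 7322 of all 15028 genes tested, with a median of -0.20. For 9 of the 13 both KO libraries lay below both WT libraries, as they did for 31.7% of all genes. Wars, at 0.29, was the 1 gene above 0. Erythroid markers, lower for 12 of 15, moved the same way as the list, and their part in this was not tested.

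Amino acid transporters had calls in both directions. Of 8, Slc7a3, Slc7a11 and Slc1a4 were higher, Slc1a5 and Slc6a9 were lower and 3 did not pass. Over all genes tested, 11.4% were higher and 9.44% lower. Slc1a5, a glutamine transporter, had 202 and 156 CPM in KO, against 314 and 245 CPM in WT (log2 fold change -0.64 ± 0.18, adjusted p = 0.0397, edgeR quasi-likelihood test). Slc6a9, the glycine transporter that feeds haem synthesis in red cell precursors, had 155 and 123 CPM in KO, against 249 and 189 CPM in WT (-0.66 ± 0.17, edgeR adjusted p = 0.0363). Both were lost without WT1 (edgeR adjusted p 0.16 and 0.143) and without KO2 (0.158 and 0.15). The erythroid markers were lower with them, and their part was not tested.

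Slc7a3, a cationic amino acid transporter, had 1.65 and 7.35 CPM in KO, against 0.774 and 0.774 CPM in WT, so its fold rested on 1 KO library: the log2 fold change was 2.54, and 1.09 without KO2 (edgeR adjusted p = 0.2). Slc7a3 was also lost without WT1 (0.0723) and without WT2 (0.0892). Slc7a11, the cystine carrier, had 3.84 and 4.74 CPM in KO, against 2.57 and 2.25 CPM in WT (edgeR adjusted p = 0.048), and its call was lost without any 1 of the 4 libraries (0.0727 to 0.223). Slc1a4, a neutral amino acid carrier, had 45.9 and 47.8 CPM in KO, against 34.5 and 32.4 CPM in WT (edgeR adjusted p = 0.024), lost without WT1 (0.0685), WT2 (0.117) and KO2 (0.0849).

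The list of further ATF4 targets had the most calls, with 8 of 17 higher, none lower and a median log2 fold change of 0.56, beside 11.4% of all genes higher. Markers of hepatocytes (higher for 6 of 17), granulocytes (6 of 12), megakaryocytes (8 of 11) and endothelium (5 of 8) moved the same way. The hepatocyte sum was 91090 and 74583 CPM in KO, against 59640 and 43153 CPM in WT. Much of it was Alb and Afp, at 31296 and 30320 CPM in KO1, and neither gene passed. The part of these cell types in the counts was not tested. Tnfrsf10b, a death receptor, had 14.1 and 13.3 CPM in KO, against 3.53 and 2.50 CPM in WT (log2 fold change 2.20 ± 0.21, adjusted p = 0.0045, edgeR quasi-likelihood test). Ddit4, an inhibitor of mTORC1, had 15.3 and 13.0 CPM in KO, against 4.71 and 5.35 CPM in WT (1.49 ± 0.18, edgeR adjusted p = 0.0067). In both genes the groups lay far apart, and both passed without any 1 library. In junction reads Ddit4 was at 2.65 and did not pass (edgeR adjusted p = 0.0597).

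Gpt2, the mitochondrial alanine transaminase, had 42.8 and 54.3 CPM in KO, against 25.2 and 27.7 CPM in WT (0.88 ± 0.15, edgeR adjusted p = 0.0111). Vegfa, the angiogenic growth factor, had 85.4 and 86.8 CPM in KO, against 60.2 and 56.9 CPM in WT (0.56 ± 0.10, edgeR adjusted p = 0.0146). Vegfa was lost without WT2 (edgeR adjusted p = 0.07) and without KO2 (0.052). The other 4 were Cth, Got1, Sesn2 and Gdf15. Tnfrsf10b, Ddit4, Sesn2 and Gdf15 are also known targets of p53, and Vegfa and Ddit4 of hypoxia signalling.

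Among the 10 tested genes of UPR sensors and processing, 2 rose and 0 fell, beside 11.4% of all genes higher and 9.44% lower. Both encode membrane-bound factors of the same family as XBP1 and ATF6, whose own genes did not pass. Creb3l3 (CREBH), a liver factor cut at the Golgi as ATF6 is, had 76.3 and 68.0 CPM in KO, against 43.7 and 30.7 CPM in WT (log2 fold change 0.96 ± 0.17, adjusted p = 0.0133, edgeR quasi-likelihood test). Creb3l2 had 19.1 and 19.2 CPM in KO, against 12.2 and 9.02 CPM in WT (0.86 ± 0.18, edgeR adjusted p = 0.0189). Creb3l2 was lost without WT2 (0.0894) and without KO2 (0.0624). The hepatocyte markers given above moved the same way as Creb3l3, and their part was not tested.

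In the list of ER folding genes, 4 of 17 rose and 16 of 17 were above 0, with a median log2 fold change of 0.27. Over all 15028 genes tested, 11.4% passed as higher and 7706 were above 0. Prkcsh, the beta subunit of glucosidase II, which trims glycans ahead of the calreticulin cycle, had 121 and 116 CPM in KO, against 61.8 and 58.8 CPM in WT (0.97 ± 0.10, adjusted p = 0.0049, edgeR quasi-likelihood test). Sil1, a nucleotide exchange factor of BiP, had 30.7 and 28.8 CPM in KO, against 19.1 and 17.4 CPM in WT (0.71 ± 0.13, edgeR adjusted p = 0.013). Sil1 was lost without WT2 (0.0643), and Prkcsh passed under every alternative.

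Pdia5, a disulfide isomerase, and Uggt1, which re-glucosylates misfolded glycoproteins, rose by 0.56 and 0.43 on the log2 scale (edgeR adjusted p 0.033 and 0.0342). Pdia5 was lost without WT1 (0.0512), WT2 (0.139) and KO1 (0.117), and Uggt1 without any 1 of the 4 libraries (0.0732 to 0.136).

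Of 15 genes of ER-associated degradation, 1 rose and the median log2 fold change was 0.01. This was Sel1l, the scaffold of the HRD1 ubiquitin ligase, with 198 and 205 CPM in KO, against 124 and 122 CPM in WT (0.71 ± 0.11, adjusted p = 0.0092, edgeR quasi-likelihood test). Its groups were far apart. Of 21 genes of translocation and the secretory pathway, 3 rose. Sec31a, a coat protein of vesicles leaving the ER, had 113 and 161 CPM in KO, against 66.0 and 65.8 CPM in WT (1.06 ± 0.17, edgeR adjusted p = 0.0101). Sel1l and Sec31a passed under every alternative.

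Sec24d, of the same coat, and Rpn2, of the complex that adds glycans, rose by 0.56 and 0.54 on the log2 scale (edgeR adjusted p 0.0256 and 0.0383). Sec24d was lost without WT1 (0.0992), WT2 (0.0727) and KO2 (0.111), and Rpn2 without any 1 of the 4 libraries (0.0711 to 0.202). In junction reads, Eif2ak1, Slc7a11 (at 0.44), Slc1a4, Slc6a9, Vegfa, Creb3l2, Pdia5 and Uggt1 did not pass. Slc7a3 and Slc7a11 did not pass by limma voom, nor Slc7a11 with transcripts summed. Tnfrsf10b, Gpt2 and Creb3l3 passed under every alternative run.

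**Figure D5:**
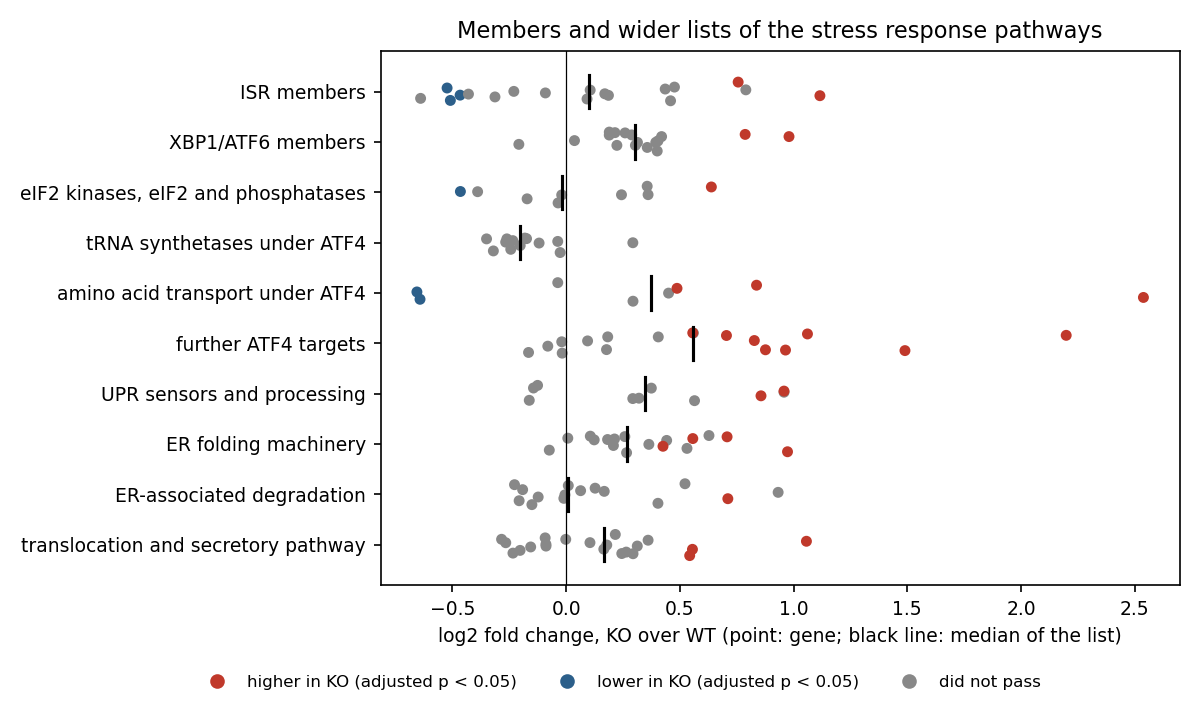
Log2 fold change of KO over WT for the 35 genes and the tested genes of the 8 further lists, 1 row of points per list, with a black line at the median. Red and blue points passed as higher and lower, grey did not pass. The tRNA synthetase list lies mostly below 0 with a median of -0.20, and the list of further ATF4 targets reaches from -0.17 to 2.20 with a median of 0.56.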

How the data were processed

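Total RNA from fetal liver cells was depleted of ribosomal RNA, cut with RNase III, selected at 150 to 300 bp, amplified for 12 PCR cycles and run on 2 slides with 2 libraries each, per the labels' protocols. No source used here says which libraries ran together, so slide and genotype cannot be told apart. The authors deposited, for each library, raw counts of reads per RefSeq transcript, with reads per nucleotide (a coverage signal) and RPKM, and raw counts of reads per splice junction. Per the file headers, alignments needed a mapping quality of 10 or more; the score clear zone was 5 and the lowest score 0. The aligner, the genome build and any use of strand in counting are among the steps not given in the sources used here. Overlapping genes may therefore share reads. Mapped reads numbered 70020061 to 111324295 per library.

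Duplicate suffixes were stripped from symbols and of several transcripts the one with most reads in total was kept, reducing 28283 transcript rows to 22011 genes. Of the members, 6 had several transcripts. edgeR 4.0.16 (R 4.3.3) with TMM scaling, its default filter on low counts and a quasi-likelihood test compared 2 KO with 2 WT libraries over 15028 genes, with Benjamini-Hochberg adjustment and a threshold of 0.05; the pipeline was tested on simulated data. Each CPM uses the TMM-scaled library size. RPKM values are the authors' and entered no test. Junction usage was tested with edgeR's diffSpliceDGE on annotated junctions with at least 10 reads. Alternatives were RLE scaling, plain library sizes, DESeq2 1.42.0, limma 3.58.1 voom, 2 other filters, sums over transcripts, junction reads, each library left out, a replicate block and a minimum of 40 junction reads.

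Given in full were Atf4, Ddit3, Hspa5, Xbp1 and each member past the test, and of each further list up to 4 genes past the test per direction, by smallest p. The members and all lists were chosen with earlier results of these data known. Promoter windows are from RefSeq (GRCm38.p6) and the Xbp1 transcript from GENCODE M21. Intervals and standard errors cover only the spread between these libraries.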

Additional observations from a re-analysis of the deposited data

How the results depend on the processing

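The 7 called members kept their direction in all 91 alternative values and their call in 66. Of 355 values for the 28 members not called, 312 stayed on their side of the threshold, 33 passed it and 10 changed sign. The sign changes, as log2 fold changes, were in Atf3 (-0.036 to 0.25 with 1 library left out), Cebpb (-0.083 to 0.82), Shmt2 (-0.032 to 0.23), Pdia6 (-0.035 to 0.38), Sdf2l1 (-0.30 to 0.31) and Nupr1 (-0.75 to 0.93, and 0.0087 with plain library sizes, 0.24 by limma voom and 0.055 with a replicate block). Among ATF4 genes, the number higher (2) was 4 with plain library sizes, 5 without a low-count filter, 1 in junction reads and 4 with a replicate block, and 1 to 4 with 1 library left out. The number lower (3) was 4 by DESeq2, 4 by limma voom, 1 with plain library sizes and 1 in junction reads. Their median (0.10) was 0.20 with plain library sizes, 0.15 by limma voom, 0.17 at a mean of at least 5 CPM and -0.034 to 0.17 with 1 library left out. Among XBP1 and ATF6 genes, the number higher (2) was 6 with plain library sizes, 4 by DESeq2, 6 without a filter, 5 at a mean of at least 5 CPM, 1 in junction reads, 6 with a replicate block and 0 to 2 with 1 library left out. Their median (0.30) was 0.24 to 0.42 with 1 library left out. In the further lists, 22 higher became 14 in junction reads and 8 to 17 with 1 library left out, and 3 lower became 5 by DESeq2, 1 in junction reads, 5 with a replicate block and 0 to 4 with 1 library left out. Over all genes, 1711 higher became 696 in junction reads and 641 to 1307 with 1 library left out, and 1419 lower became 495 and 338 to 1185. Fits with 1 library left out have 1 lone sample in a group, assumed to vary like the other group. The cause of these changes was not tested.

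The block used a number that 1 WT and 1 KO library share in the names of the deposited tables. The labels give no such number, and no pairing was taken from it. The deviations of same-numbered libraries from their group means correlated at 0.14 over genes. With 2 libraries a group the value for the crossed libraries is fixed at -0.14, so the correlation cannot show whether libraries were paired. With the block, 2342 genes were higher and 1999 lower. Plain library sizes moved the median of all genes to 0.11, against 0.02. Depth limited Nupr1, Atf3, Chac1 and Trib3, with 24 to 190 reads a library.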

Other observations

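A pair of members had alternative junctions with counts large enough to describe, chosen after their values were seen. Aldh18a1 has a pair of splice donors 6 bases apart, and the longer intron was used in 5 of its reads in KO replicate 1 (5.56%) and 29 in KO replicate 2 (18.6%), against 2 (4.08%) and 10 (8.62%) in the WT libraries. KO replicate 2 stood apart and the groups overlapped, and the test of usage did not pass (log2 usage change 1.19, unadjusted p = 0.134, edgeR's diffSpliceDGE).

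Atf6 had an unannotated junction that leaves its first exon and spans 5 annotated junctions, counting the annotated first junction with which it shares an end. It held 74 and 8 reads in KO, against 24 and 60 reads in WT, beside 55 and 44 reads in KO and 42 and 83 reads in WT on the annotated first junction. As a share of the 2 junctions this was 57.4% and 15.4% in KO, against 36.4% and 42.0% in WT, so the KO libraries enclosed both WT libraries.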
